A study of Mus musculus with 9 samples.

Results

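The potassium channel genes were followed through the brain arrays of a mouse study of Alzheimer's disease. They were taken as every gene on the array whose single symbol starts with Kcn, apart from Kcnj13, with the probe set of highest mean signal kept for each gene. This gave 91 genes of the 19938 genes with a single symbol, of which 88 are protein-coding in RefSeq and 3 are long non-coding RNAs named after a channel gene (Kcnd3os, Kcnmb4os1 and Kcnmb4os2). By role the 91 genes held 8 Shaker (Kv1) pore-forming subunits, 1 Shab (Kv2), 3 Shaw (Kv3), 3 Shal (Kv4), 3 KCNQ (Kv7) and 7 of the ether-a-go-go family. They also held 10 electrically silent voltage-gated subunits, 14 inward rectifiers, 14 two-pore domain leak channels, 4 Slo channels and 4 small- or intermediate-conductance calcium-activated channels. The ancillary members were 3 cytoplasmic Kv1 beta subunits, 4 Kv4-interacting calcium-binding proteins, 5 single-span subunits and 4 beta subunits of the large-conductance calcium-activated channel. Kcnrg, whose product binds voltage-gated subunits and is not itself a channel, was counted with the non-coding RNAs in a last set of 4.

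There were 3 groups of 3 brain arrays. The control group was wild-type C57/6J mice, and the model group was APP/PS1 transgenic mice on the same background, which carry a mutant amyloid precursor protein and a mutant presenilin and form amyloid plaques. The HPYD group was APP/PS1 transgenic mice given HPYD, a peptide designed to break the beta-sheet of amyloid, into the nose at 33 mg per mL and 5 µL per day for 30 days. By the study's methods the control and model mice received the same volume of saline, the APP/PS1 mice were 8 months old when obtained, and 12 mice were assigned to each treatment arm. Neither the labels nor the methods say which part of the brain was taken or that each array came from its own mouse, so the p-values measure the spread between these arrays only. The arrays are called C1 to C3, M1 to M3 and H1 to H3 after the numbers in their labels. All levels are log2 signals, and all differences are differences of log2 signals.

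Potassium channels let potassium leave the cell, which sets the resting potential, ends the action potential and limits how fast a neuron can fire. Voltage-gated subunits open on depolarization, calcium-activated ones follow calcium entry, and inward rectifiers and leak channels hold the membrane near rest, in glia as well as in neurons. Many members are restricted to certain brain regions or cell types, so that their level in a piece of brain depends on its cell makeup. In bulk tissue, fewer cells of a type and less RNA per cell cannot be told apart.

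The arrays were first set against their labels. Xist, the RNA of the inactive X, lay between 5.20 and 5.69 in the control arrays and between 11.18 and 11.78 in M1, M2, M3, H1 and H2, and was 5.22 in H3. Kdm5d, on the Y chromosome, ran the other way, at 7.84 in H3. App and Prnp, the latter the gene of the promoter that drives many APP/PS1 transgenes, were at 12.53 and 11.52 in H3. In the remaining model and HPYD arrays App lay from 12.95 to 13.02 and Prnp from 12.42 to 12.55, and in the control arrays App lay from 12.56 to 12.62 and Prnp from 11.76 to 11.81. The array labelled HPYD group 3 therefore lay near the control arrays in these 4 genes, and went against its label in App and Prnp. Neither the labels nor the methods give the sex of the mice. Sex, as read from Xist and Kdm5d, and genotype ran together in the other arrays, so that they cannot be told apart. Markers of neurons as a whole stayed within 0.11 of the control mean in every array (median over 10 of 10 markers). They did not move as one in M2 and H3, where the SD over the markers was 0.34 and 0.31, against 0.02 to 0.1 in the others. Medians of markers of brain regions moved further. The 10 of 10 markers of cerebellar granule cells had a median of 2.63 above the control mean in M2 and 2.76 above it in H3, against 0.49 or less in the others. The 8 of 11 measured markers of striatal projection neurons had medians of -1.67 to -1.32 from the control mean in M1, M2, H2 and H3, and within 0.19 of it elsewhere. Genes of skeletal muscle (16 of 16 measured) were 2.19 higher in M1, 3.81 higher in M2 and 0.71 higher in H2, and genes of granulocytes (12 of 13) were 2.74 to 3.63 higher in the same arrays. Some of the results that rest on these arrays are also given without them.

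**Figure D1:**
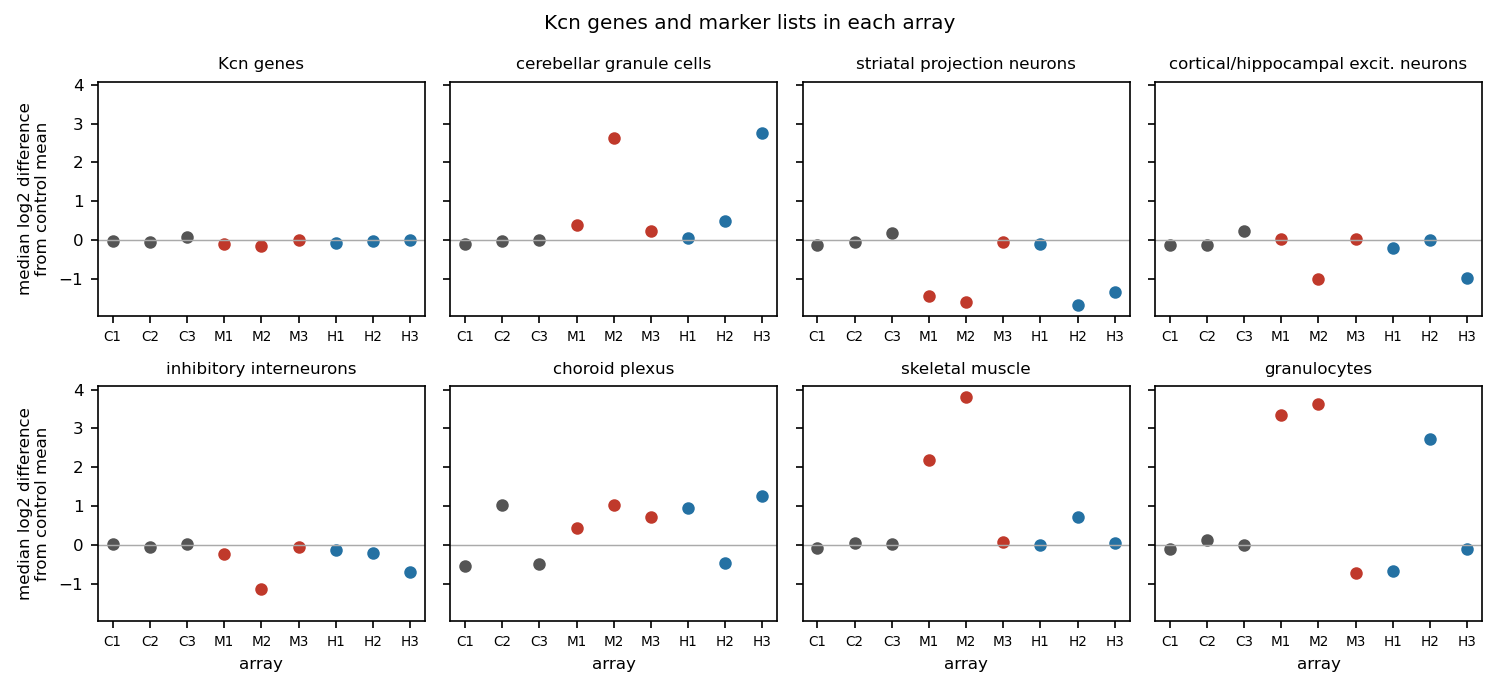
Median log2 difference from the control mean (y axis) in each array (x axis; C1 to C3 control in grey, M1 to M3 model in red, H1 to H3 labelled HPYD in blue) for the 91 Kcn genes and 7 marker lists. The Kcn median stays between -0.15 and 0.08, while the cerebellar granule cell markers reach 2.63 in M2 and 2.76 in H3 and the striatal markers are low in M1, M2, H2 and H3.

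The spread between arrays of one group was described first. In 90 of the 91 genes the widest range within a group was larger than the gap between the highest and lowest group mean, which was also so for 97.6% of all genes. Kcna5 was the exception, with a gap of 0.60 and a widest range of 0.49. The median range over the 91 genes was 0.26 in the control arrays, 0.44 in the model arrays and 0.45 in the HPYD arrays, and the median gap between group means was 0.22. The 5 genes with the largest SD over the 9 arrays were Kcnv1 (1.06), Kcng4 (0.99), Kcnj4 (0.92), Kcnh3 (0.88) and, with Kcnt2 level with it at 0.87, Kcnf1. In each of these the spread came from the same pair of arrays, M2 and H3, which belong to different groups.

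**Figure D2:**
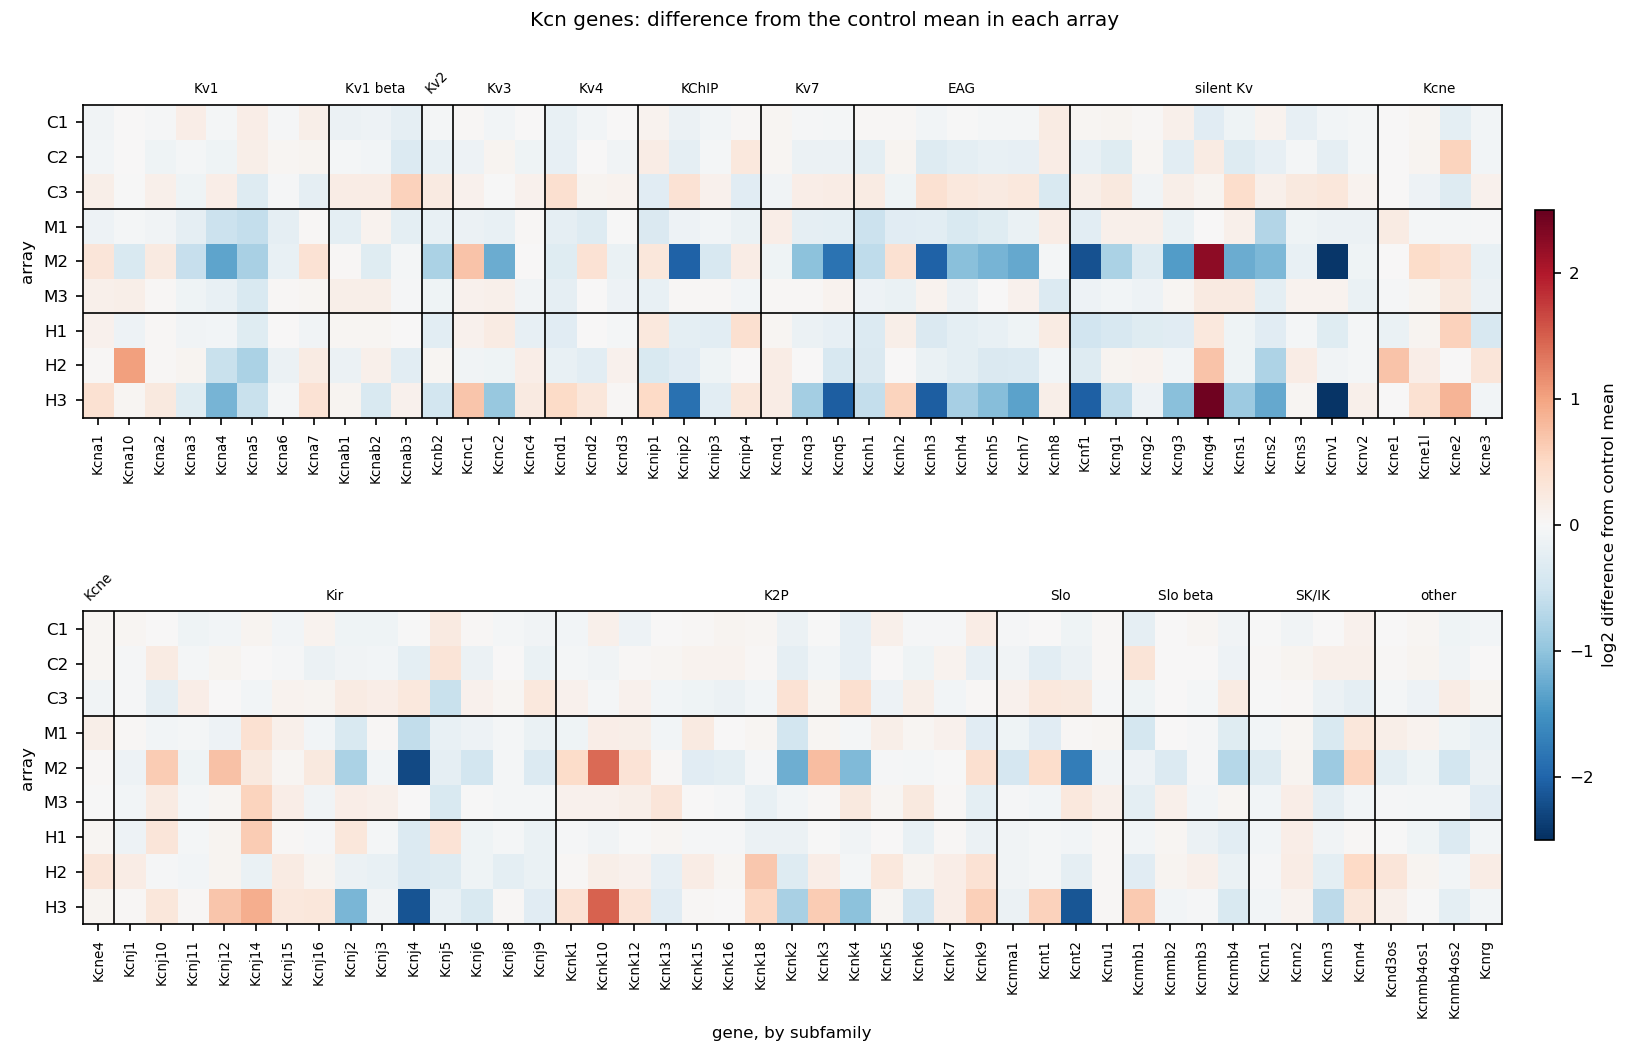
Log2 difference from the control mean (colour) of the 91 Kcn genes (columns, by subfamily, in an upper and a lower row) in each array (C1 to C3 control, M1 to M3 model, H1 to H3 labelled HPYD). The strongest colours lie in M2 and H3, which share low Kcnv1, Kcnf1, Kcnip2, Kcnj4, Kcnh3, Kcnt2 and Kcnq5 and high Kcng4 and Kcnk10.

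The silent subunits, which form no channel alone and tune the Kv2 channels they join, held the widest movements. Kcnv1 was 10.22, 10.06 and 10.56 in the control arrays, 10.13, 7.84 and 10.36 in the model arrays and 9.97, 10.20 and 7.83 in the HPYD arrays. Only M2 and H3 were low, and the other 7 arrays lay between 9.97 and 10.56. Kcnf1 was 9.40, 9.16 and 9.49 in the control arrays, 9.09, 7.18 and 9.22 in the model arrays, and 8.87, 9.02 and 7.31 in the HPYD arrays. Kcng4, another silent subunit, went the opposite way, at 6.64, 7.12 and 6.99, then 6.93, 9.16 and 7.14, then 7.19, 7.63 and 9.36 in the same order. It was thus highest in the arrays where Kcnv1 and Kcnf1 were lowest. Kcng3 and Kcns1 were low in the same arrays as Kcnv1: M2 differed from the mean of M1 and M3 by -1.34 and -1.42 for these genes, and H3 from the mean of H1 and H2 by -0.87 and -0.80. The 10 silent subunits had a median of -0.96 in M2 and -0.76 in H3 relative to the control mean, and of -0.28 to 0.14 in the other arrays.

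The promoters of a silent subunit that was high in M2 and H3 and of 2 genes that were low in both are shown. These genes stood apart in the same arrays, in opposite directions. Whether their promoters bear on this was not tested. The genes were chosen after their values were seen. Each sequence is the RefSeq window of 250 bases before to 50 after the start of transcription in GRCm38.p6, on the minus strand, and capitals mark a GC box (GGGCGG or its complement) or a CCAAT box (CCAAT or its complement). The windows are chr8:119635631-119635930 for Kcng4, chr12:17176839-17177138 for Kcnf1 and chr15:79505192-79505491 for Kcnj4. The Kcnj4 window lies inside the RefSeq gene, which reaches to 79512511, so its start is an internal one.
Kcng4: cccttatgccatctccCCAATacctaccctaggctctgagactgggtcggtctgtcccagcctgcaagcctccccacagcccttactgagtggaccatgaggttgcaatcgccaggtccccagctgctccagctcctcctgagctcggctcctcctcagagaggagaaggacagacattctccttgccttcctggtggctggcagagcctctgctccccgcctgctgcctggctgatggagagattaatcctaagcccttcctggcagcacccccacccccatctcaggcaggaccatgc
Kcnf1: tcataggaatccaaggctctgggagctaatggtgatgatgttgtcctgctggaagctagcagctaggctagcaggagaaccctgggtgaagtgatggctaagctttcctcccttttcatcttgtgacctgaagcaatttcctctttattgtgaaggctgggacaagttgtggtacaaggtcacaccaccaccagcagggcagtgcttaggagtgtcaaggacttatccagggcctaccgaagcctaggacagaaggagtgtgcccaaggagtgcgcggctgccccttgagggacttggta
Kcnj4: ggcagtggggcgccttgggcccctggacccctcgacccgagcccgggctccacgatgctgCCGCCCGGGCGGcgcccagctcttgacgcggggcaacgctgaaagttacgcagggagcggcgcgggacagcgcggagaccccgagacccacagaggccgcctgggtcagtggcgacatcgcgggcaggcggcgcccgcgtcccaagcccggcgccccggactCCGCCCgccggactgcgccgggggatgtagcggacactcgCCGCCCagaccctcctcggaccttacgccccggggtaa
Kcng4 held 1 CCAAT box and was 61.3% G and C, Kcnf1 held none of the motifs searched and was 53.0% G and C, and Kcnj4 held 4 GC boxes and was 76.0% G and C. Promoter windows were found for 69 of the 91 genes (94 windows). A GC box was in 47.9% of them, against 35.7% of all 32851 windows, a TATA box (TATAAA) in 4.3% against 13.6%, and a CCAAT box in 30.9% against 37.4%. An E-box (CACGTG) was in 7.4% against 7.2% and a cyclic AMP response element (TGACGTCA) in 0.0% against 1.8%, counting both strands. These motifs differ in their letters, and none contains another. The median G and C content was 58.2% for the Kcn windows and 52.7% for all windows.

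M2 and H3 were then each set against the other 2 arrays of their own group, so that the values of the pair share no array. Over the 91 genes the difference of M2 from the mean of M1 and M3 and that of H3 from the mean of H1 and H2 had a Pearson r of 0.95 and a Spearman rho of 0.90. Over all 19938 genes r was 0.59 and rho 0.53. Genes are not independent replicates and all points come from the same 6 arrays, so these are descriptions without a test. A difference of more than 0.5 from the group mates was found in 37.4% of the Kcn genes in M2 (12.3% of all genes) and in 30 of the 91 in H3 (9.14% of all genes). In M2, 23 Kcn genes were lower by more than 0.5 and in H3 19, and all 19 were among the 23 (the whole of H3's list and 82.6% of M2's, against 70.1% and 58.1% over all genes). In each array 11 were higher by more than 0.5, and 7 were higher in both (63.6% of either list, against 43.9% of M2's and 67.1% of H3's over all genes). In 0 Kcn genes, and in 0.426% of all genes, did the pair differ by that much in opposite directions. M1, M3, H1 and H2, set against their own group mates in the same way, had between 16.5% and 24.2% of the Kcn genes past 0.5 (4.73% to 6.87% of all genes), but there the mean of the mates held M2 or H3.

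**Figure D3:**
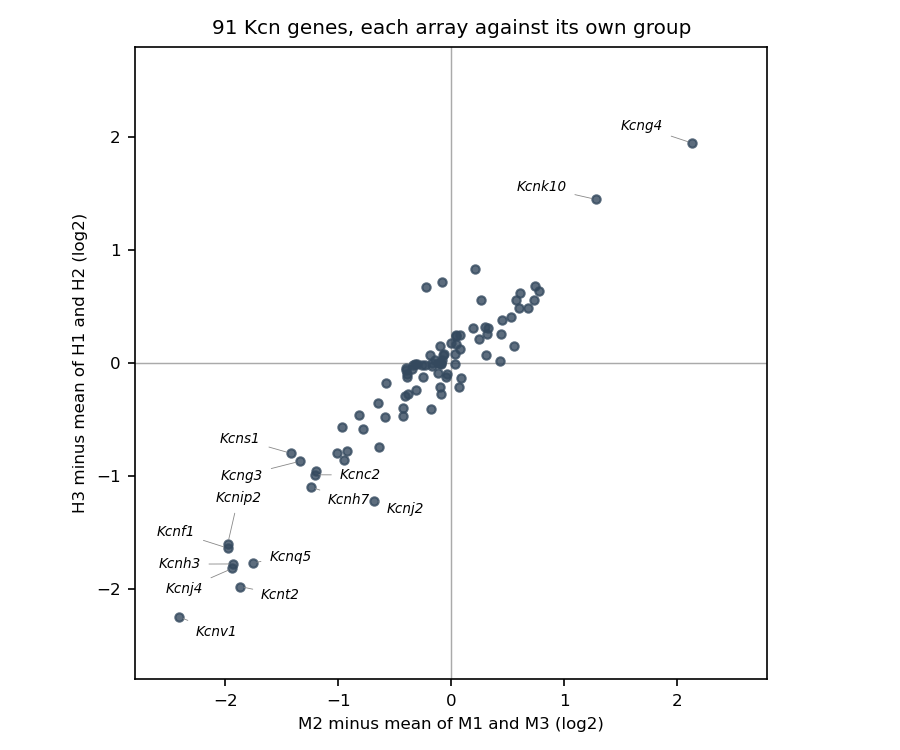
Difference of H3 from the mean of H1 and H2 (y axis, log2) against the difference of M2 from the mean of M1 and M3 (x axis, log2), with 1 point for each of the 91 Kcn genes. The points follow the diagonal from Kcnv1 (-2.41 and -2.25) to Kcng4 (2.13 and 1.95), with Pearson r 0.95 across genes.

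The genes that were low in both arrays came from several classes. Kcnip2, a calcium-binding partner of Kv4 channels, was 10.05, 9.98 and 10.57 in the control arrays, 10.07, 8.17 and 10.23 in the model arrays and 9.96, 9.93 and 8.34 in the HPYD arrays. Kcnj4, the inward rectifier Kir2.3, was 9.60, 9.36 and 9.87, then 9.0, 7.36 and 9.61, then 9.27, 9.27 and 7.45. Kcnh3, an ELK channel of the forebrain, was 9.77, 9.52 and 10.23, then 9.57, 7.82 and 9.92, then 9.47, 9.67 and 7.78. In all of these the values of M2 and H3 lay close to each other and well below every other array. Kcnt2, a sodium-activated channel, was 9.08, 9.05 and 9.44 in the control arrays, 9.22, 7.46 and 9.45 in the model arrays and 9.12, 8.96 and 7.05 in the HPYD arrays. Kcnq5, which carries part of the M-current that restrains repeated firing, was 10.31, 10.21 and 10.52, then 10.11, 8.50 and 10.42, then 10.15, 9.94 and 8.28. Its relative Kcnq3 was also low in both, at 9.14 in M2 and 9.31 in H3 against 9.93 to 10.33 in the others. The same was found for Kcna4, Kcnc2, Kcnh4, Kcnh5, Kcnh7, Kcnj2, Kcnk2 and Kcnk4, with differences of -1.24 to -0.68 for M2 from its group mates and of -1.22 to -0.57 for H3 from its own. Among them Kcnk2 and Kcnk4 encode the mechanosensitive leak channels TREK-1 and TRAAK.

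The genes that were high in both arrays were fewer. Kcnk10, the leak channel TREK-2, was 8.18, 7.97 and 8.0 in the control arrays, 8.21, 9.47 and 8.16 in the model arrays and 7.97, 8.19 and 9.53 in the HPYD arrays. Kcnc1 (Kv3.1), which lets neurons fire at high rates, was 9.73, 9.59 and 9.80, then 9.55, 10.42 and 9.81, then 9.80, 9.62 and 10.39. Kcnj12 (Kir2.2) was 7.68 in M2 and 7.65 in H3 and between 6.82 and 7.02 in the others. Kcnk3 (TASK-1), Kcnt1 and Kcnip1 were the rest of the 7, with M2 0.57 to 0.73 and H3 0.56 to 0.62 above their group mates. Kcnk9 (TASK-3) and Kcnd2 (Kv4.2) were 0.68 and 0.53 higher in M2 and 0.49 and 0.41 higher in H3. Kcnc1, Kcnk3, Kcnk9 and Kcnd2 are all known from cerebellar granule cells. The Kcn genes were not sorted by whether these cells express them, and the part of these cells in the values was not tested.

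**Figure D4:**
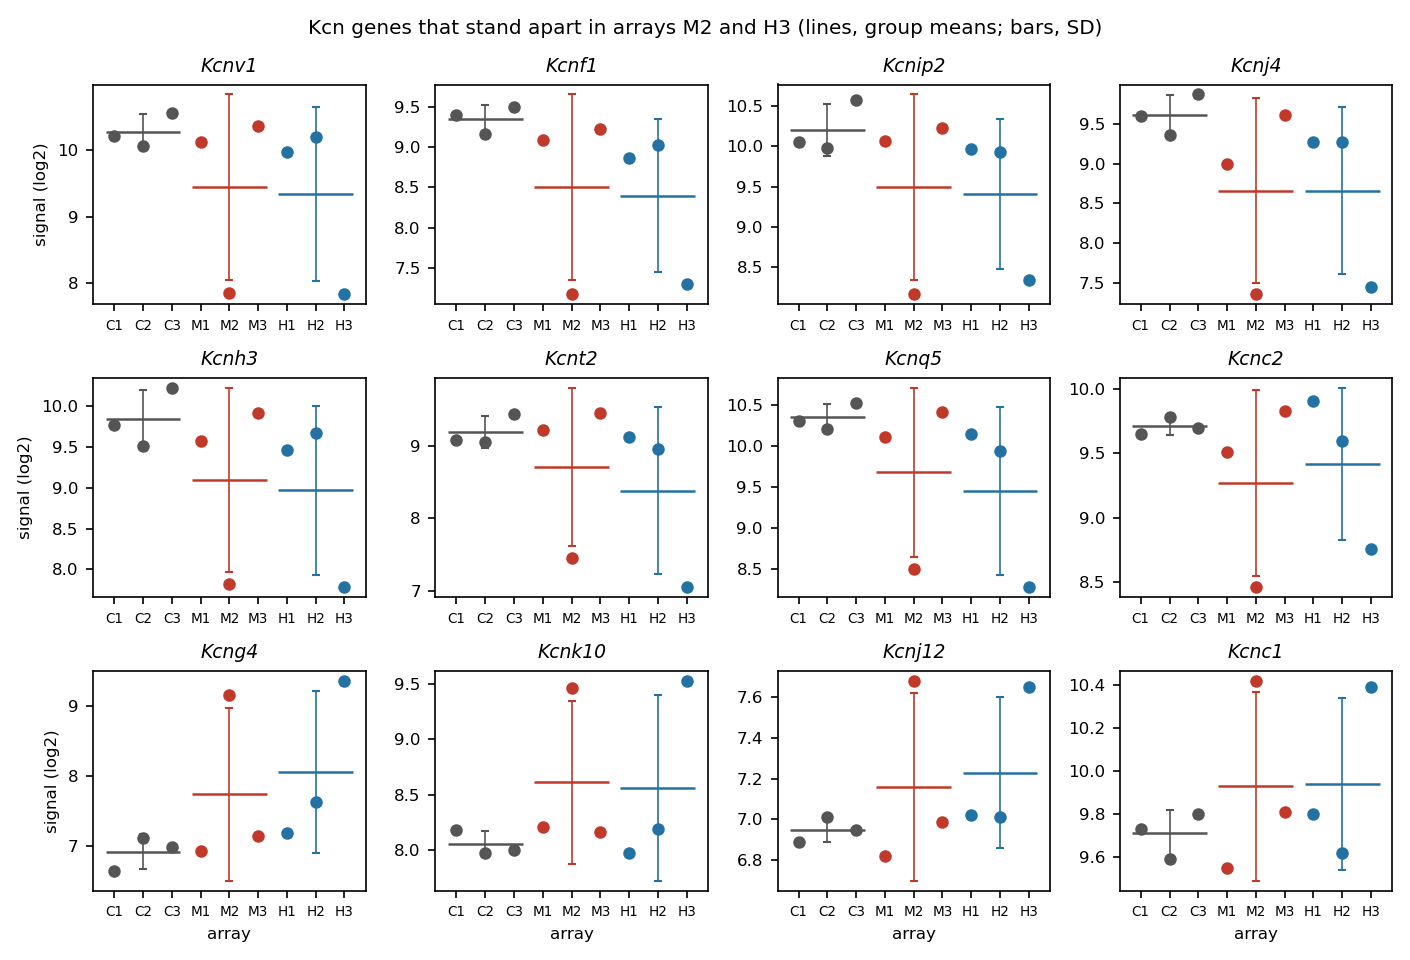
Log2 signal (y axis, a separate scale for each gene) of 12 Kcn genes in each array (x axis; C1 to C3 control in grey, M1 to M3 model in red, H1 to H3 labelled HPYD in blue); horizontal lines are group means and vertical bars the SD (n = 3). In the upper 8 genes M2 and H3 are the lowest arrays and in the lower 4 the highest.

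Markers of other cells moved with these arrays. Gabra6, the receptor subunit that marks cerebellar granule cells, was 11.35 in M2 and 11.29 in H3, against 4.54 to 8.20 in the others. Neurod6, a gene of cortical and hippocampal excitatory neurons, was 7.05 in M2 and 6.77 in H3, against 8.49 to 9.37. The mean level of the 10 cerebellar markers was 10.91 in M2 and 10.93 in H3, and 7.78 to 8.77 in the others, and that of the 9 of 10 measured cortical and hippocampal markers was 8.93 and 8.96, against 9.88 to 10.29. Markers of inhibitory interneurons (10 of 10) had medians of -1.14 in M2 and -0.69 in H3, but did not move as one (SD over the markers 1.27 and 1.13). Dlx1 was 6.61 in M2 and 7.07 in H3, against 8.08 to 9.11 in the others. Pvalb went the other way, at 12.06 and 11.73 against 9.39 to 10.56. Gad1, at 11.12 and 11.21, was near the control values of 11.05 to 11.20. M2 had high muscle and granulocyte genes and H3 had not, with muscle and granulocyte medians of 0.04 and -0.10 in H3. The part of the regional markers in the Kcn values was not tested.

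The model arrays were compared with the control arrays to ask what differs in the APP/PS1 brain. No Kcn gene passed an adjusted p of 0.05 in limma, as was true of all genes (0.0%), and the smallest adjusted p was 0.859. At an unadjusted p under 0.05, 5 of the 91 Kcn genes were lower in the model arrays (2.05% of all genes) and 0 were higher (2.87% of all genes). The 5 were Kcna5, Kcnh1, Kcnn3, Kcns2 and Kcnrg. The mean was lower in the model group for 62 of the 91 genes (68.1%, against 55.0% of all genes), with a median difference of -0.07 over the Kcn genes and -0.01 over all genes. Without M1 and M2, which leaves M3 alone in the group, the Kcn median was -0.0024. The model arrays were all below the control arrays for 8 Kcn genes (4.68% of all genes), which were Kcna4, Kcna5, Kcnd1, Kcnn1, Kcnn3, Kcnrg, Kcns2 and Kcnv2. Every model array lay above for Kcnj14 and Kcnk12, 2 genes (4.83% of all genes).

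Kcna5, the Shaker subunit Kv1.5, was 6.82, 6.79 and 6.33 in the control arrays, 6.04, 5.83 and 6.27 in the model arrays and 6.34, 5.84 and 6.08 in the HPYD arrays. The model arrays all lay below the control arrays, with a difference of -0.60 (SE 0.18, limma unadjusted p = 0.00997). Kcns2, a silent subunit, was 8.21, 7.93 and 8.26 in the control arrays, 7.41, 7.01 and 7.88 in the model arrays and 7.85, 7.36 and 6.87 in the HPYD arrays. All 6 model and HPYD arrays were below all 3 control arrays, with a model difference of -0.70 (SE 0.28, limma unadjusted p = 0.037). Its lowest arrays, M1, M2, H2 and H3, were those with low striatal markers, and without them the difference was -0.25. Kcnh1, an ether-a-go-go channel (EAG1), was 10.27, 9.99 and 10.45, then 9.71, 9.59 and 10.10, then 9.89, 9.87 and 9.64. The model and control ranges overlapped, and the difference was -0.44 (SE 0.16, limma unadjusted p = 0.0258). Kcnn3 (SK3), a small-conductance calcium-activated channel that shapes the pause after a spike, was 9.08, 9.20 and 8.93, then 8.68, 8.17 and 8.85, then 8.98, 8.82 and 8.42. Its model difference was -0.50 (SE 0.20, limma unadjusted p = 0.0341), and without M2 it was -0.31. Kcnrg was 5.72, 5.79 and 5.84, then 5.60, 5.64 and 5.50, then 5.72, 5.97 and 5.72, with a difference of -0.21 (SE 0.08, limma unadjusted p = 0.039). In exact two-sided permutation tests over the 6 arrays, p was 0.1 for Kcna5, Kcnn3, Kcnrg and Kcns2, the smallest that 3 arrays against 3 can give, and 0.2 for Kcnh1.

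Which genes were counted depended on single arrays. The shares of all genes under the same exclusions are not given, here or in the later comparisons. The counts therefore show how the calls shift and nothing particular to the Kcn genes. Without M3 the count was 12, without M2 or M1 it was 2 each time, without C1 it was 2, and without C2 or C3 it was 3. Without H3, which takes part in the shared estimate of spread only, it was 8. Leaving out M1, M2 and H2 together, the arrays in which muscle genes were high, left M3 alone in the model group, its spread taken from the other arrays, and gave 2, Kcnrg and Kcnj14, and the differences of Kcna5, Kcnh1, Kcnn3 and Kcns2 shrank to -0.38, -0.13, -0.22 and -0.25. Kcnrg was the exception, at -0.29. Kcna4 (Kv1.4), which carries a fast inactivating current, was 8.62, 8.55 and 8.82 in the control arrays and 8.14, 7.35 and 8.47 in the model arrays. Its groups did not overlap, but the difference of -0.68 (SE 0.33) had a limma unadjusted p of 0.0744. In the HPYD arrays it was 8.60, 8.11 and 7.50.

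**Figure D5:**
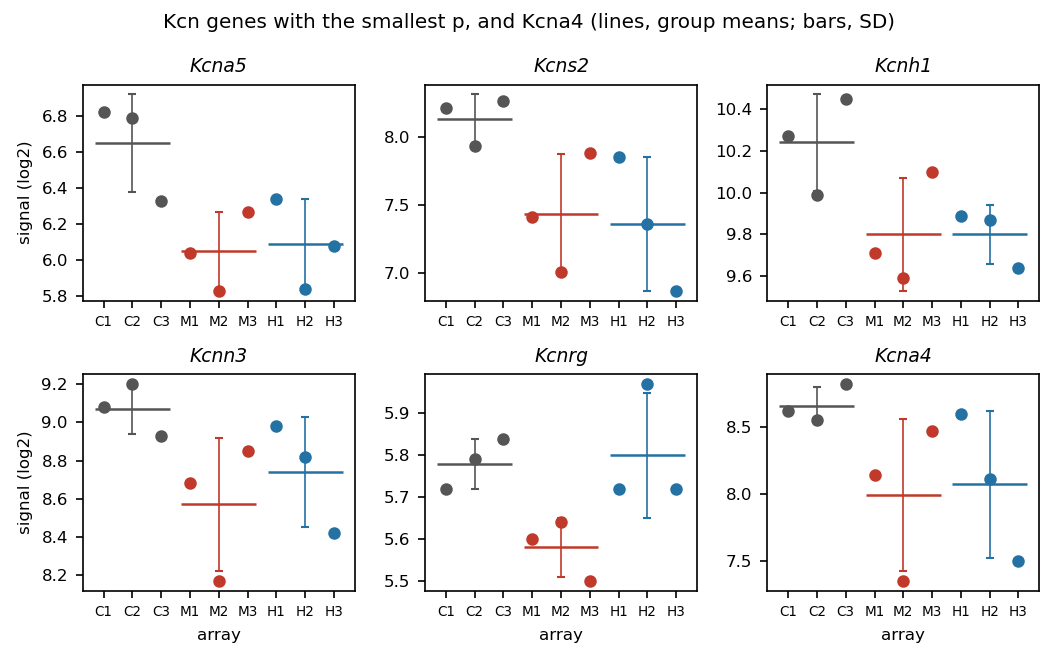
Log2 signal (y axis, a separate scale for each gene) of Kcna5, Kcns2, Kcnh1, Kcnn3, Kcnrg and Kcna4 in each array (x axis; C1 to C3 control in grey, M1 to M3 model in red, H1 to H3 labelled HPYD in blue); horizontal lines are group means and vertical bars the SD (n = 3). For all but Kcnrg, M3 is the highest model array and M2 the lowest.

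The HPYD arrays were compared with the model arrays to ask what differed after the peptide was given. No Kcn gene passed an adjusted p of 0.05 in limma (0.0% of all genes), and the smallest adjusted p was 1. At an unadjusted p under 0.05 there was 1 higher gene of 91 (1.22% of all genes), Kcnrg, and 0 were lower (0.752% of all genes). The Kcnrg difference was 0.22 (SE 0.08, limma unadjusted p = 0.0276), every HPYD array lying above every model array, and without H3 it was 0.27. Without H2 it was 0.14. Kcnv2, a silent subunit known from photoreceptors, was the other gene with every HPYD array above, making 2 (2.24% of all genes), at 5.82, 5.85 and 5.81 in the model arrays and 5.92, 5.92 and 6.09 in the HPYD arrays. Several of these values are identical between arrays, as they were for 28 of the 91 genes. In 0 genes was every HPYD array below every model array (0.983% of all genes). Without H3, 4 genes lay above (4.30% of all genes) and 1 below (3.73% of all genes), the latter Kcnk12. These Kcn counts left out genes tied after rounding, which the shares of all genes did not. The median difference over the Kcn genes was 0.05, with 61 of 91 higher (57.5% of all genes), against 0.02 over all genes. With M1, M2 and H2 left out it was -0.02. Leaving out single arrays moved the count of 1 to 0 without M3, 2 without C3, 3 without M1, M2 or H2 and 5 without H1. This comparison shares the model arrays with the one before.

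The HPYD arrays were last set against the control arrays. This comparison shares the control arrays with the first and the HPYD arrays with the second, so its values stand beside theirs and are not a separate check of them. Against the control arrays, Kcna5 differed by -0.56 (SE 0.18), Kcns2 by -0.77 (SE 0.28) and Kcnh1 by -0.44 (SE 0.16) in the HPYD arrays, with limma unadjusted p-values of 0.0141, 0.0246 and 0.0256. Kcnn3 differed by -0.33 (SE 0.20, limma unadjusted p = 0.134) and Kcnrg by 0.02 (SE 0.08). No Kcn gene passed an adjusted p of 0.05 in limma in this comparison either (0.0% of all genes). The 3 genes were all those lower at an unadjusted p under 0.05 (1.24% of all genes), and 0 were higher (2.00% of all genes). Without H3 the differences were -0.55 for Kcna5, -0.53 for Kcns2 and -0.36 for Kcnh1, the last of which then had a limma unadjusted p of 0.0849, as did Kcns2. Without the 4 arrays with low striatal markers, which leaves H1 alone in its group, they were -0.31, -0.28 and -0.35, and none of the 3 had a limma unadjusted p under 0.05. Without C1 the count was 0, and without H1 it was 8. Exact permutation p was 0.1 for Kcnh1 and Kcns2 and 0.2 for Kcna5.

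Every HPYD array lay below every control array for 10 Kcn genes (4.74% of all genes). They were Kcnf1, Kcnh1, Kcnip2, Kcnip3, Kcnj4, Kcnma1, Kcnmb4, Kcnn1, Kcnq5 and Kcns2. Leaving out H3 cannot remove a gene from this list, so that all 10 stay is no check on H3. Over all genes the share was then 8.09%. For several of them H1 and H2 lay only just outside the control range, as in Kcnip2 at 9.96 and 9.93 against a lowest control value of 9.98. Kcnma1, the pore of the large-conductance calcium-activated (BK) channel, was 10.49, 10.45 and 10.64 in the control arrays, 10.41, 10.11 and 10.50 in the model arrays and 10.44, 10.43 and 10.38 in the HPYD arrays. Its neuronal partner Kcnmb4 was 8.74, 8.72 and 9.05, then 8.53, 8.12 and 8.88, then 8.58, 8.67 and 8.44. Every HPYD array lay above every control array for Kcne1l, Kcng4 and Kcnn2, 3 genes (4.78% of all genes). Without H3, which can only add genes, Kcnmb2 joined them (7.32% of all genes). Kcn genes were looked up here on rounded values, at which H1 and C2 tie for Kcne1l, and the share of all genes on unrounded ones. Kcnn2 (SK2), the small-conductance channel of dendrites, was 8.50, 8.65 and 8.62 in the control arrays, 8.63, 8.65 and 8.75 in the model arrays and 8.76, 8.78 and 8.67 in the HPYD arrays. Over the 91 genes the median difference was -0.01 (0.01 over all genes), with 44 higher and 47 lower (54.3% of all genes higher).

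Array by array, the Kcn genes lay below the control range more often than above it in all 6 arrays on the values as deposited. All genes did the same in M1, M2, M3 and H1, but not in H2 and H3. M3 was the nearest to the control arrays, with 13 of the 91 genes above every control array (19.1% of all genes) and 19 below (20.9%). M1 had 16 above (25.3%) and 37 below (28.8%), and M2 had 21 above (30.1%) and 48 below (38.0%). H1 had 15 above (20.6%) and 27 below (28.1%), and H2 had 26 above (29.6%) and 28 below (26.4%). H3 had 35 above (39.6%) and 38 below (27.5%). As shares of the 91 genes, those below were 40.7% in M1, 52.7% in M2 and 41.8% in H3, all above the shares of all genes. In M3, H1 and H2 they were 20.9%, 29.7% and 30.8%, at or nearer to the shares of all genes. When each array was shifted to a common median or quantile-normalized, the M1 counts were 11 to 12 above and 45 to 46 below, and the M3 counts were 13 and 19 after the shift and 18 and 18 after quantile normalization. In the remaining arrays more genes stayed below than above under both.

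M1 and H2, which had low striatal markers and raised muscle and granulocyte genes, were each set against the array of their group that had neither, M3 and H1. Over the 91 genes the difference M1 minus M3 and the difference H2 minus H1 had a Pearson r of 0.45 and a Spearman rho of 0.57 (0.58 and 0.35 over all genes), as a description across genes. Kcns2 differed by -0.48 between M1 and M3 and by -0.50 between H2 and H1. Kcnj2 (Kir2.1) differed by -0.55 and -0.42 and Kcna4 by -0.33 and -0.49. Other genes differed in the first pair without a counterpart in the second, as Kcnj4 by -0.61 and 0.00, Kcnh1 by -0.40 and -0.01, Kcnmb4 by -0.36 and 0.09 and Kcnh8 by 0.52 and -0.26. Rgs9, a marker of striatal projection neurons, was 8.06 in M1 and 8.03 in H2, against 9.88 in M3 and 9.80 in H1. The mean level of the cerebellar markers was 8.48 in M1, 8.77 in H2 and 8.49 in M3, against 7.79 in H1, that of the muscle genes 8.64 and 7.32 in M1 and H2 against 6.5 and 6.43 in M3 and H1, and that of the granulocyte genes 9.79 and 9.17 against 5.90 and 5.92. The part of these cells in the Kcn differences was not tested.

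Among the main voltage-gated subunits of axons, Kcna1 and Kcna2 (Kv1.1 and Kv1.2) differed little between the group means. Kcna1 ranged from 10.34 in M1 to 10.84 in H3, and Kcna2 from 10.74 in C2 to 11.08 in H3. Their cytoplasmic partner Kcnab2 ranged from 10.96 in H3 to 11.54 in C3. M2 and H3 were the highest arrays for Kcna1 (10.76 and 10.84) and Kcna2 (11.06 and 11.08), and the lowest for Kcnab2 (11.04 and 10.96). For Kcna1, Kcna2 and Kcnab2 in turn, the group differences were small. The model differences were 0.11 (SE 0.14), 0.05 (SE 0.10) and -0.03 (SE 0.17), none larger than the spread between arrays. Kcnd2 had group means of 11.06, 11.07 and 11.06 in the control, model and HPYD arrays, while its arrays spanned 0.69, with M2 highest at 11.42. Kcnh2 (ERG1), which repolarizes heart and brain cells, was 8.80, 8.84 and 8.66, then 8.48, 9.14 and 8.60, then 8.90, 8.76 and 9.33, so that M2 and H3 were again the highest arrays.

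The inward rectifiers of the G-protein-gated (GIRK) type, which mediate slow synaptic inhibition, varied to different degrees. Over the 9 arrays Kcnj3 ranged from 10.15 to 10.49, Kcnj6 from 7.48 to 8.05, Kcnj9 from 8.73 to 9.34 and Kcnj5 from 5.93 to 6.83, with both ends of Kcnj5 outside the model group. M2 and H3 were the lowest arrays for Kcnj6 (7.48 and 7.56) and Kcnj9 (8.73 and 8.80), but not for Kcnj3 or Kcnj5. Their model differences were 0.03, -0.20, -0.19 and -0.27, none with a limma unadjusted p under 0.05, and the HPYD minus model differences were -0.13 (SE 0.09) for Kcnj3 and -0.00 for Kcnj6 (SE 0.13). Kcnj11, the pore of the ATP-sensitive channel of neurons, was 8.17 ± 0.14 in the control, 8.11 ± 0.03 in the model and 8.14 ± 0.05 in the HPYD arrays (SD, n = 3). Its vascular relative Kcnj8, found in pericytes, was 7.68 ± 0.04, 7.63 ± 0.01 and 7.59 ± 0.14. Kcnj14 (Kir2.4) was 5.20, 5.13 and 5.07 in the control arrays, 5.52, 5.39 and 5.70 in the model arrays and 5.76, 4.96 and 6.03 in the HPYD arrays. Its model arrays lay above all control arrays, with a difference of 0.40 (SE 0.24, limma unadjusted p = 0.134), but its HPYD arrays lay on both sides.

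Members known from glia and other non-neuronal cells were looked at beside the markers of those cells. Kcnj10 (Kir4.1), the main potassium channel of astrocytes, was 10.61, 10.81 and 10.38 in the control arrays, 10.54, 11.23 and 10.80 in the model arrays and 10.91, 10.57 and 10.89 in the HPYD arrays. The groups overlapped, and the model difference was 0.26 (SE 0.19). Markers of astrocytes (10 of 10) had medians of 0.05 to 0.21 above the control mean in the model and HPYD arrays, 0.21 in both M2 and H3. Kcnj16, its partner, ranged from 8.35 to 8.77. Kcnk13 (THIK-1), the leak channel of microglia, was 7.62, 7.67 and 7.56, then 7.55, 7.63 and 7.92, then 7.66, 7.41 and 7.32. H3, where it was lowest, also had the lowest median of microglial markers (-0.74 over 9 of 10 measured). In M1, M3, H1 and H2 that median was 0.26 to 0.41, and in M2 it was -0.29. Kcnk13 did not follow it in H2, where it was below all control arrays at 7.41 with a median of 0.33. Nor did it in M2, where it was within the control range at 7.63. Kcnk6 (TWIK-2), a leak channel known from macrophages, was also lowest in H3, at 7.43 against 7.72 to 8.15. Whether microglia had a part in the Kcnk13 and Kcnk6 values was not tested. Genes of plaque-associated microglia (10 of 11) were 0.86 to 1.17 above the control mean in M1, M2, M3, H1 and H2 and -0.04 from it in H3. Kcna3 (Kv1.3), found in T cells and microglia as well as neurons, was 9.31, 9.10 and 9.05, then 8.92, 8.58 and 9.05, then 9.06, 9.21 and 8.84.

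Kcne2, the single-span subunit that is abundant in choroid plexus, was 5.60, 6.38 and 5.52 in the control arrays, 5.78, 6.19 and 6.08 in the model arrays and 6.42, 5.84 and 6.69 in the HPYD arrays. The high arrays within each group were C2, M2 and M3, and H1 and H3. Markers of choroid plexus (8 of 9) were 0.71 to 1.26 above the control mean in the same arrays, and Ttr, the gene of the thyroid hormone carrier they secrete, was 12.89 to 13.20 there. The low arrays C1, C3 and H2 had Ttr at 9.26, 10.84 and 9.30, and M1 had it at 12.54. The part of choroid plexus in the Kcne2 values was not tested. Kcnn4, the intermediate-conductance channel of immune and red blood cells, was 6.41, 6.43 and 6.09, then 6.60, 6.85 and 6.23, then 6.32, 6.80 and 6.59. Its highest arrays were M2, H2 and M1, where S100a8, a granulocyte gene, was 10.53, 9.23 and 9.91, against 5.36 to 6.63 in the others. H3 was nearly level with M1 for Kcnn4, at 6.59, but had S100a8 at 6.38. The part of granulocytes in the Kcnn4 values was not tested either. H2 stood alone for Kcna10 and Kcne1, at 7.18 against 5.79 to 6.32 and at 6.26 against 5.38 to 5.75.

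Of 24 genes listed as partners of the channels, 23 were measured. In the model arrays 10 of the 23 had a higher mean than in the control arrays (45% of all genes). The median difference was -0.05, and none passed an adjusted p of 0.05 in limma (0.0% of all genes). At an unadjusted p under 0.05, 2 partners were lower (2.05% of all genes) and 0 were higher (2.87% of all genes). Cntnap2, the cell adhesion protein that clusters Kv1 channels beside the node of Ranvier, differed by -0.23 (SE 0.09). Dpp10, an accessory protein of Kv4 channels, differed by -0.21 (SE 0.09). Cntnap2 was 10.31, 10.26 and 10.26 in the control arrays, between 9.96 and 10.19 in the model arrays and 10.30, 10.03 and 10.13 in the HPYD arrays. Every model array was below every control array, and M1, M2 and H2 were the lowest of the 9. Hcn3, a pacemaker channel, was the single partner past an unadjusted p of 0.05 between HPYD and model arrays. It was higher by 0.17 (SE 0.07), as 1.22% of all genes were higher at that p. Between HPYD and control arrays the single partner was Lrrc52, an auxiliary subunit of Slo channels, which was higher (2.00% of all genes). Its values were 5.66, 5.85 and 5.51 in the control and 5.80, 5.94 and 6.16 in the HPYD arrays.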

How the data were processed

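Brain RNA was hybridized to GeneChip Mouse Gene 1.0 ST arrays. The authors deposited log2 values for 35556 probe sets on 9 arrays. MAS5 is named in the submitters' processing notes, without a version, and the sources used here give neither the genome build nor the normalization. The array medians lay between 6.69 and 6.82, and in 41.2% of probe sets at least 2 arrays held the identical value. Of the probe sets 21789 have a single gene symbol, 1621 have several and 12146 have none here. Only the first were used, and for genes with several probe sets the highest mean was kept.

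Groups and array numbers came from the sample titles. The values were used as deposited and fitted over all 19938 genes and all 9 arrays with limma 3.58.1 (lmFit, eBayes) in R 4.3.3, with Benjamini-Hochberg adjustment over all genes. Single genes were also given an exact two-sided permutation test. Kcn genes were named when they had an unadjusted p under 0.05 or groups that did not overlap (up to 10 per comparison), when fixed by role, or when among the 5 with the largest SD. Other genes described for M2 and H3, those for M1 and H2, and Kcna10 and Kcne1, were chosen after their values were seen. The members, lists and tests were chosen with earlier results of these data known. The number of arrays limits the precision. Alternatives were other normalizations, probe set and dimness rules, variance models, array weights, a replicate block, leaving out arrays, and the test named in the study's methods. Same-numbered arrays were not paired, since their residuals correlated between -0.32 and 0.18.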

Additional observations from a re-analysis of the deposited data

How the results depend on the processing

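No Kcn gene passed an adjusted p of 0.05 under any of the alternatives, so only counts at an unadjusted p under 0.05 and medians could move. The counts stand without the share of all genes under the same alternative, so they show nothing particular to the Kcn genes. For model against control (5 genes), array weights gave 8, leaving out the 3 arrays with raised muscle genes 2, the Student-Newman-Keuls test of the methods 0, and leaving out 1 array at a time 2 to 12. The median of -0.07 was -0.0024 without the muscle arrays or without the 4 arrays with low striatal markers, and -0.11 to -0.05 without 1 array. For HPYD against model (1 gene), the count was 2 after shifting arrays to one median, with array weights, without the 2 arrays with raised cerebellar markers or without the 4 low-striatal arrays. It was 4 without the muscle arrays, 0 without the dimmest 30% of genes (78 Kcn genes left), with only the 6 arrays compared or with the methods' test, and 0 to 5 without 1 array. The median of 0.05 was -0.02 without the muscle arrays, -0.05 without the low-striatal arrays and 0.02 to 0.11 without 1 array. For HPYD against control (3 genes), the count was 6 with array weights or without the muscle arrays, 5 without the cerebellar or the low-striatal arrays, 0 with the methods' test and 0 to 8 without 1 array, and the median of -0.01 was -0.03 to 0.02 without 1 array, -0.06 without the low-striatal arrays, -0.05 without the dimmest genes and -0.04 after quantile normalization. With a replicate block the counts were 4, 1 and 3, and Kcnn3 in model against control was the gene lost. The cause of these changes was not tested. The exclusions by cerebellar and striatal markers were chosen after seeing the data. Without the low-striatal arrays the model and HPYD groups hold 1 array each, and without the muscle arrays the model group holds 1, assumed to vary like the other arrays. Of the named genes, Kcna5, Kcnh1, Kcnn3, Kcnrg and Kcns2 kept the direction of their difference under every alternative that could be fitted. Kcnrg is among the dimmest 30%.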
